A study of Drosophila melanogaster with 2 samples.

Results

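Distal summits are the points of highest Psq-GFP enrichment that lie more than 5000 bp from the transcription start site (TSS) of any annotated transcript of a protein-coding gene. They were chosen by distance alone from the 2999 peaks of the authors' optimal IDR list, and 443 of the 2999 qualified (14.8%, 95% Wilson interval 13.5 to 16.1). An IDR list is thresholded on how reproducibly peaks rank, but the settings used for this one are unknown. Being in the list did not mean being among the equally many strongest peaks of both replicates. The data are chromatin immunoprecipitation sequencing of whole Drosophila melanogaster embryos, 0 to 24 hours old with the sexes pooled, in 1 group of 2 biological replicates labelled 3 and 4. The embryos come from the strain psq-GFP, which stably carries a transgene for Psq fused to GFP at its C terminus. The precipitation used an antibody to GFP, and chromatin was sonicated to 200 to 800 bp. There is no second genotype, treatment or stage, and the labels' possible control was not analysed here. The fusion protein, not the native one, was precipitated, and the labels do not give the transgene's promoter. All cell types and all hours of embryogenesis are pooled, so strong binding in few cells and weak binding in many cannot be told apart. Sequencing depth is unknown, because none of the lists gives numbers of reads.

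Psq (Pipsqueak) is a nuclear protein with a BTB domain, through which it assembles into multimers, and a Psq DNA-binding domain that recognises GA-rich repeats. It is known from oogenesis, eye development and work on Polycomb group repression, and it binds the same repeats as the GAGA factor encoded by Trl. In flies, elements far from a TSS include enhancers, Polycomb response elements and insulators, many of them in long introns of genes for transcription factors and signalling proteins. Binding at such a place does not by itself say which of these an element is, and none of those functions was measured here.

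The bases around 12 distal summits are printed as examples, picked for GA repeats or high scores, and are not a sample of the class. Over all distal windows 37.2% held GAGAG, the 5-base GA repeat. The first 8 hold GA repeats, among them the strongest distal summit (in pum) and the longest uninterrupted repeats (in ush and Raf), and the last 4 were scored strongly by the authors and hold no match to the 5-base repeat. Each run is 201 bases, 100 on either side of the summit, read 5′ to 3′ on the forward strand of the RefSeq dm6 genome, and the capitals mark GAGAG and its complement CTCTC.
pum intron (chr3R:9220522-9220722): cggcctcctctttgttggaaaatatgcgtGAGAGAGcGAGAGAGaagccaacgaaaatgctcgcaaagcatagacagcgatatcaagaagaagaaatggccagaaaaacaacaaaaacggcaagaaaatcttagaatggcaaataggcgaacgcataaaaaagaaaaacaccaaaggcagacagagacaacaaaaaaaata
InR intron, strongest summit (chr3R:21605514-21605714): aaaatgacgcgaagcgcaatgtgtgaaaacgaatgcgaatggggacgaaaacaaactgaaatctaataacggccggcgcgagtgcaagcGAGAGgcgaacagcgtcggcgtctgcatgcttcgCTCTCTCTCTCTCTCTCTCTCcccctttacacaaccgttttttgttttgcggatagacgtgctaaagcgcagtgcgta
InR intron, neighbouring summit (chr3R:21605722-21605922): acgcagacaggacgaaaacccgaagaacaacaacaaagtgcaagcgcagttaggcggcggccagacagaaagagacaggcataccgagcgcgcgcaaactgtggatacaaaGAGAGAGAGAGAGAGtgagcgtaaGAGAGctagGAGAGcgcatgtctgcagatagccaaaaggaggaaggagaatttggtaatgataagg
wts intron (chr3R:30794732-30794932): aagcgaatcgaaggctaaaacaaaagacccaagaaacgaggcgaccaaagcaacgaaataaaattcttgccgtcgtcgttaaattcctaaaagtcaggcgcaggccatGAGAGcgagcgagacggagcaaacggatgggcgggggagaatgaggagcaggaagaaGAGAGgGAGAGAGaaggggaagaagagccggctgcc
MSAmiP intron (chr3R:16857748-16857948): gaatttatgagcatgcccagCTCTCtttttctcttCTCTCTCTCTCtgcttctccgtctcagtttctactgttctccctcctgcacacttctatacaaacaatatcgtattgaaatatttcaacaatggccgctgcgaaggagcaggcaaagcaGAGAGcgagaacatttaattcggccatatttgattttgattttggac
ush intron (chr2L:510550-510750): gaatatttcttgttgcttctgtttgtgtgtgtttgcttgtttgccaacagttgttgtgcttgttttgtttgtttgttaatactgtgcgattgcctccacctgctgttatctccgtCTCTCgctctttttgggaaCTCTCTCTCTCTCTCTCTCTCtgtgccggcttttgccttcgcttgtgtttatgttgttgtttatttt
Raf intron (chrX:2302234-2302434): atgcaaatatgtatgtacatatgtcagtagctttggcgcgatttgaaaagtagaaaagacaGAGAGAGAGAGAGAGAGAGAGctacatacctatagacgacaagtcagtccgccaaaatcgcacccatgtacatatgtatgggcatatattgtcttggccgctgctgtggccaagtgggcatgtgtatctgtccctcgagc
Eip75B intron (chr3L:18010497-18010697): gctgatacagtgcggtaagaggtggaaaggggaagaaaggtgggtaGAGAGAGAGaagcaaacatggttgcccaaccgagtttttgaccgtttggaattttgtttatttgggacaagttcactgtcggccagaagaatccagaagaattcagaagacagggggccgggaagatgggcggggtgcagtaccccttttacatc
InR intron, second-strongest summit (chr3R:21613442-21613642): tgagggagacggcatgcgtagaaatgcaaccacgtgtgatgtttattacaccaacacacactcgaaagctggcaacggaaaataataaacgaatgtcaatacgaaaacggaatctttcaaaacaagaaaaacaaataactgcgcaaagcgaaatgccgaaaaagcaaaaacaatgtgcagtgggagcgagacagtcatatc
chinmo upstream (chr2L:1643440-1643640): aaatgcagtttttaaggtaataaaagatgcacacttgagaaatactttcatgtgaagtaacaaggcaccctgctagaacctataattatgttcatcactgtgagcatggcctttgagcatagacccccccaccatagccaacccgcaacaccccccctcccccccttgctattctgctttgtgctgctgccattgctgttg
osa, in an lncRNA exon (chr3R:17704313-17704513): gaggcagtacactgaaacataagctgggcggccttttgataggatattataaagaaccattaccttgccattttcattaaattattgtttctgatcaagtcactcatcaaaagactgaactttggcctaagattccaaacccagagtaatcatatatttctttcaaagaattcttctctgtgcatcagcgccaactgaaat
Smr intron (chrX:12736070-12736270): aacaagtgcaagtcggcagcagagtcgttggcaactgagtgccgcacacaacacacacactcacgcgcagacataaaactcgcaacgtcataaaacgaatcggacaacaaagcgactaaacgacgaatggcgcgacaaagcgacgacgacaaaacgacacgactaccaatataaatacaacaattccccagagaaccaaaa
The repeats fall on either side of the summits rather than at a fixed place. In the InR pair, whose summits lie 208 bp apart, the longest repeat reads CT on the forward strand at the first summit and GA at the second.

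Distal summits lay at a median of 9762 bp from the nearest coding TSS (quartiles 6732.5 and 14115.5). Between 5000 and 10000 bp there were 225, between 10000 and 20000 bp 170, and between 20000 and 50000 bp 46. Beyond 50000 bp were 2, near CG12362 at 68653 bp and near Tim23 at 199289 bp. The nearest TSS lay upstream of the summit, so that the summit was on the transcribed side of it, for 297, and downstream for 146. At the edge of the rule, the first 2 summits beyond 5000 bp were near CG4004 (5009 bp, score 335) and in CG32264 (5022 bp, score 96.0), and the last 2 short of it were in ush (4982 bp, score 192) and grp (4980 bp, score 207). The score is the peak caller's own statistic and ranks peaks within a list only.

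By gene model, 294 distal summits were in an intron of a protein-coding gene (66.4%, 61.8 to 70.6) and 112 were intergenic (25.3%). A further 25 were in an exon of a non-coding gene (5.64%) and 9 in an intron of one (2.03%). Exons of coding genes held 3 (0.677%), among them 1 in Cals on chromosome 4. Of summits at 501 to 5000 bp, 69.1% were in introns of coding genes and 19.7% were intergenic. Within 500 bp these shares were 25.7% and 47.7%. A protein-coding gene spanned 304 of the 443 (68.6%), and in 218 of those the nearest coding TSS belonged to that gene, whereas in 86 it belonged to another gene. TSSs of non-coding genes lay within 500 bp of 23 distal summits (5.19%), 21 of which were lncRNA or other ncRNA genes. The share was 6.40% for summits 501 to 5000 bp from a coding TSS and 4.66% for those within 500 bp. These 23 distal summits thus sat near a TSS that the rule does not count. No distal summit lay in an annotated transposable element, which allows a share of up to 0.860%, and over all IDR summits 3 did (0.10%). Inside and outside coding genes the summits had median scores of 97.1 and 100.3, and 37.2% and 37.4% of them had the 5-base GA repeat within 100 bp.

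**Figure D1:**
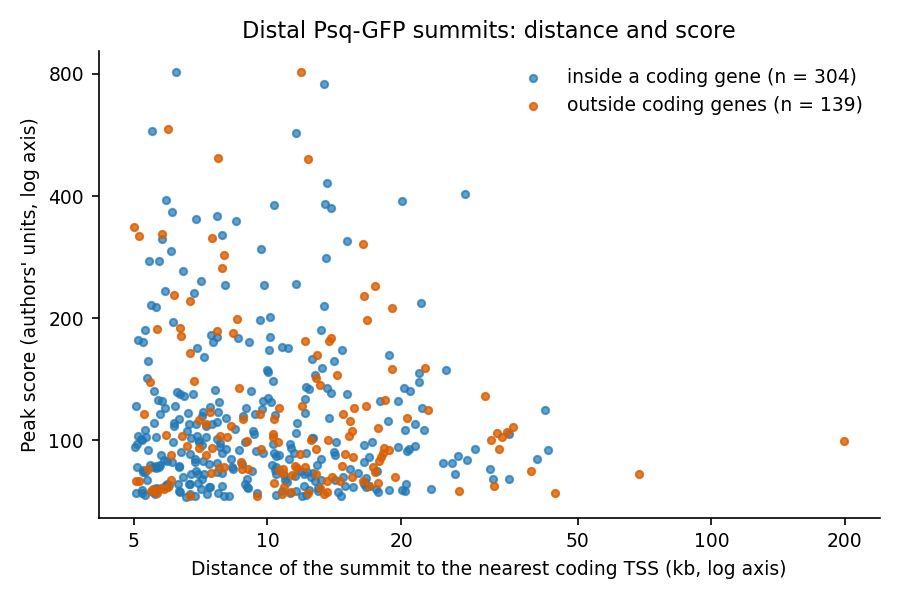
Each point is 1 of the 443 distal summits, with its distance to the nearest coding TSS in kb on the horizontal log axis and its score in the IDR list on the vertical log axis, coloured by whether a protein-coding gene spans it (304) or not (139). Most points lie below 20 kb and below a score of 200, and the strongest, up to 809, lie between 5 and 30 kb.

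The distal summits were on all 6 chromosome arms. They were 117 of the summits of 3L (17.9%, 4.16 per Mb), 84 of 2L (15.9%), 79 of X (15.6%), 97 of 3R (13.6%), 64 of 2R (10.8%) and 2 on chromosome 4. The last 2 were in Cals, with a score of 198, and near lgs, with a score of 150. Another IDR summit lay within 2000 bp of 154 distal summits (34.8%), which is close to the 34.7% over all IDR summits. The share was 43.7% at 501 to 5000 bp from a coding TSS and 29.2% within 500 bp. No other summit lay within 10000 bp of 144 distal ones. Of the 57 with a neighbour within 500 bp (12.9%, beside 14.5% of all IDR summits), 49 had it at 200 to 220 bp, and the smallest gap anywhere in the IDR list was 199 bp. Merging summits within 500 bp left 415 distal sites.

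The distal summits had a lower range of scores than the other classes. Their median was 97.8 (quartiles 82.7 and 131), against 107 for summits 501 to 5000 bp away and 113 for summits within 500 bp. By construction 50% of all IDR peaks lie above the list's median. Of the distal summits 173 did (39.1%), fewer than the 472 of 969 at 501 to 5000 bp (48.7%, a difference of -9.66 percentage points, Fisher's exact test, two-sided, adjusted p = 8.31e-04) and the 854 of 1587 within 500 bp (53.8%, a difference of -14.8 points, adjusted p = 7.81e-08). Peaks are not replicates and share both libraries, so these p-values describe this list of peaks. Within the upper 50% of the list, tested against the median of that part, the difference to 501 to 5000 bp was 0.731 points (Fisher's exact test, adjusted p = 0.929). In the strongest 10% of the list were 36 distal summits, 8.13% of their class. The share was 8.36% at 501 to 5000 bp and 11.5% within 500 bp, and it is 10% over all IDR peaks by construction. These shares were not tested.

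The strongest distal summit was in an intron of pum, which encodes the translational repressor Pumilio. It lay 6218 bp from the pum TSS, at chr3R:9220336-9220924 in dm6, and scored 809 in the IDR list, 349 in the list of replicate 3 and 466 in that of replicate 4. The next, in the intergenic space 11915 bp downstream of the CG13323 TSS, scored 808, with 409 and 400 in replicates 3 and 4. Both replicates placed these 2 among their 24 highest peaks.

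InR, the receptor of the insulin-like peptides, held the third and the fifth of the 12 strongest. The third, at chr3R:21605313-21605913 and 13422 bp from the TSS, scored 756 (362 in replicate 3 and 393 in replicate 4) and carries an alternating GA run of 21 bases. The fifth, at chr3R:21613333-21613748 and 5494 bp from the TSS, scored 578 (259 and 317) and holds no GAGAG within 100 bp. InR held 6 distal summits in all, on 4 sites, and 5 of these 6 had the repeat.

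Upstream of chinmo, which encodes a BTB zinc-finger factor of neuronal temporal identity and stem cell maintenance, 5 distal summits on 4 sites lay in intergenic DNA and none in the gene. The 2 strongest were at chr2L:1643379-1643895, 7718 bp upstream (score 498, with 228 and 271 in replicates 3 and 4), and at chr2L:1638591-1639183, 12321 bp upstream (score 493, with 201 and 293). The others scored between 77.1 and 315. None of the IDR summits lay within 500 bp of a chinmo TSS.

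The remaining members of the strongest 12 lay in or near wts, MSAmiP, Smr, sbb, CG4004 and psq. An intron of wts, the core kinase of the Hippo pathway, held a summit of score 572 at chr3R:30794550-30795148 (259 in replicate 3 and 310 in replicate 4), with its nearest coding TSS, that of zfh1, 11574 bp away. A summit of score 405 in an intron of MSAmiP, at chr3R:16857624-16858049 (180 and 223), lay 27799 bp upstream of abd-A, a Hox gene of the bithorax complex, and has a GA run of 13 bases. Smr, a corepressor of nuclear receptors and Notch targets, held a summit of score 390 (180 and 211), and sbb, another corepressor, one of 389 (155 and 238). The strongest distal summit near CG4004 scored 584 (251 and 341) and lay in a non-coding exon 418 bp from the TSS of lncRNA:CR44619. Each of the 12 had its peak among the 2999 strongest of both replicates, which the naming rule asked for.

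psq itself held 7 distal summits on 5 sites, all in introns. The strongest scored 431, with 190 in replicate 3 and 256 in replicate 4, and lay 13613 bp from its nearest coding TSS, which belongs to CG11883. The next scored 383 and 277, and the weakest 74.5. Across all distances psq held 19 IDR summits, so 12 of them were 5000 bp or less from a coding TSS. lola and Trl, which encode another BTB factor and the GAGA factor, held no distal summit.

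Assigning each distal summit to every coding gene that spans it, or otherwise to the gene of the nearest TSS, gave 277 of 13945 coding genes (1.99%). Of these, 185 had 1 distal summit, 53 had 2 and 39 had 3 or more. The 181 genes that hold one inside were long, with a median span of 39009 bp against 2166 bp over all coding genes, and 179 were over 10000 bp. Length bears on every count of genes here, since a gene must extend beyond 5000 bp to hold a distal summit downstream of its only TSS. Among genes over 10000 bp, 191 of 1977 had a distal summit (9.66%).

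Eip75B, an ecdysone-induced nuclear receptor that is also a repressor partner of Hr3, had the most, 10 distal summits on 7 sites within its 113744 bp. Its strongest was at chr3L:17989973-17990331, 9650 bp from a TSS (score 296, with 146 in replicate 3 and 153 in replicate 4). The second, at chr3L:18010377-18010816, scored 170 (83.3 and 91.7), and the others between 73.8 and 121. Hr4, another nuclear receptor of the ecdysone cascade, held 7, of scores between 90.1 and 149. ftz-f1, the competence factor of the same cascade, held 5, of scores between 77.9 and 167.

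InR, sbb and tara, which encodes a nuclear cell-cycle and homeotic regulator, held 6 each. The tara summits scored between 92.8 and 313, and for 1 of them, with a score of 160, the list of replicate 4 had no overlapping peak. N, osa, Tis11, Raf, ftz-f1, chinmo and CG43245 were among the genes with 5 each, chinmo and CG43245 from outside the gene. In N, the Notch receptor, the strongest scored 380 (171 in replicate 3 and 216 in replicate 4). The strongest in osa, a subunit of the Brahma chromatin remodeller, scored 374 (186 and 193) and lay in an exon of a non-coding gene inside osa. In Tis11, an mRNA decay factor, the strongest scored 365, and in Raf, the kinase of the Ras pathway, 179.

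**Figure D2:**
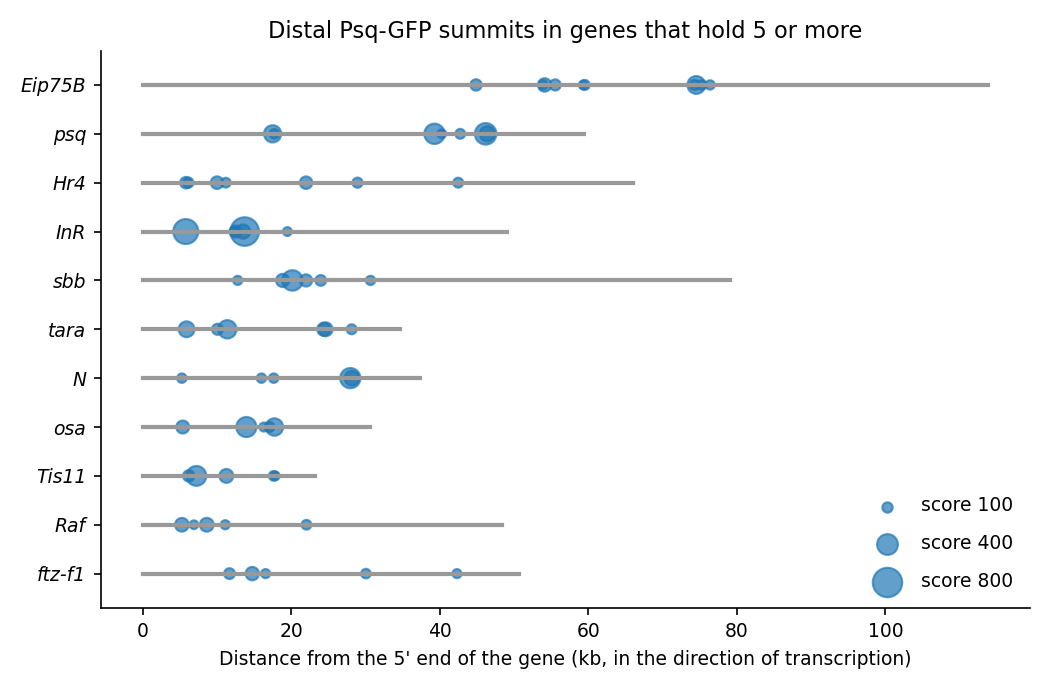
Each grey line is 1 of the 11 genes that hold 5 or more distal summits, drawn from its 5′ end in kb, and each circle is a distal summit with an area proportional to its score. In Eip75B the 10 summits fall into a few groups in the middle of the gene, and in InR the 2 strongest (756 and 578) lie within the first 15 kb.

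Other genes with 3 or 4 distal summits included Smr, ed, Tet, dlp, zld, ush, Antp, gpp, lilli, skd, simj, Glut4EF, scyl and Myc. The 3 in zld, which encodes the pioneer factor of zygotic genome activation, scored between 80.4 and 174. Of the 3 assigned to Myc, the growth regulator, 2 were intergenic at 15350 and 17793 bp from the TSS (scores 112 and 88.7).

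Genes that hold a distal summit inside often also had one at a TSS. A TSS with an IDR summit at 500 bp or less was found in 79 of the 181 (43.6%, 36.6 to 50.9), against 371 of the 1798 other genes over 10000 bp (20.6%, 18.8 to 22.6), and in 14.1% of all coding genes. This is a description and was not tested, since the genes differ in length and in the number of their TSSs. Eip75B, psq, InR, sbb, tara, N and Tis11 were among those with both, whereas Hr4, osa, Raf and ftz-f1 had none that close to a TSS.

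The gene groups differed in how many members had a distal summit, and the groups are not independent since some genes are in more than 1 list. The lists are selections, not whole families, and were chosen with earlier results of these data known. Each share therefore describes its list only, and no share was tested. All shares below stand beside 1.99% of all coding genes and 9.66% of those over 10000 bp. In the ecdysone cascade 8 of 18 genes had one (44.4%, 24.6 to 66.3), or 8 of the 16 over 10000 bp, with 31 summits between them. They were E23, EcR, Eip74EF, Eip75B, Hr3, Hr39, Hr4 and ftz-f1. The strongest in Hr3, a nuclear receptor that follows the ecdysone pulse, scored 320 (150 in replicate 3 and 168 in replicate 4), and the 2 in EcR, the hormone's receptor, scored 89.2 and 81.3.

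Polycomb and trithorax group genes maintain silent and active states of developmental genes. Of the 33 in the list 7 had a distal summit (21.2%, 10.7 to 37.8), or 6 of the 11 over 10000 bp, with 16 summits. They were Psc, Su(z)2, corto, gpp, osa, skd and trx. The strongest of the 3 summits in skd, a Mediator subunit, scored 310 (142 and 164 in replicates 3 and 4), and the single one in trx, a histone methyltransferase, 115.1 (44.4 and 71.4). In cell signalling 14 of 58 genes had one (24.1%, 14.96 to 36.5), or 14 of 35 over 10000 bp, among them InR, N, dpp, ptc, dally, pnt and Dad. Only 1 summit was assigned to dpp, the BMP ligand, with a score of 83.7.

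Among the 17 BTB and Psq-domain factors in the list 5 had one (29.4%, 13.3 to 53.1), or 5 of the 13 over 10000 bp. Those listed genes were ab, bab1, bab2, chinmo and psq. The summits in ab, bab2 and bab1 scored 116, 127 and 72.9. Of the homeodomain factors 12 of 58 had one (20.7%, 12.3 to 32.8), or 7 of the 35 over 10000 bp. The strongest were in Antp (135, with 67.7 in replicate 3 and 76.3 in replicate 4), ct (105, with 37.5 and 67.4) and near vvl (102, with 35.0 and 63.7). The vvl summit was not among the 2999 strongest of replicate 3. The distal summits assigned to en, Dfd and ftz, of scores 76.3, 75.2 and 83.4, were near the lowest score of the IDR list, 72.5.

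Of the 57 other developmental transcription factors in the list 5 had one (8.77%, 3.81 to 18.9), led by noc (145 and 121) and ush (144). Over 10000 bp it was 1 of 25 (4.00%), below the 9.66% of all genes of that length. That share depends on the list, which leaves out zld and Myc, both over 10000 bp and assigned 3 distal summits each. For axon guidance and cell adhesion the number was 7 of 51 (13.7%, 6.81 to 25.7), led by Fas3 (100), Ten-a (89.8) and Ptp10D (88.9), and 7 of the 46 over 10000 bp. RNA-binding regulators had 3 of 27 (11.1%, 3.85 to 28.1), or 3 of the 24 over 10000 bp. Besides pum these were sm and how, at 86.1 and 75.8.

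In ion channel and synapse genes 1 of 40 had a distal summit (2.50%, 0.443 to 12.9), or 1 of the 34 over 10000 bp. It was in dnc, the cAMP phosphodiesterase of olfactory learning, and scored 93.3. The cytosolic ribosomal protein genes had 0 of 85, which allows up to 4.32%, while in 46 of them a TSS lay 500 bp or less from an IDR summit. None of the 85 is over 10000 bp, and their median span is 1333 bp. A summit outside a gene can also be assigned to it, and whether span accounts for the 0 was not tested.

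Whether distal peaks were found in each replicate alone was asked by comparing the IDR list with the equally many strongest peaks of each. Over all IDR peaks 75.7% overlapped such a peak in both replicates, and of the distal ones 296 did (66.8%). That was fewer than the 728 at 501 to 5000 bp (75.1%, a difference of -8.31 points, Fisher's exact test, two-sided, adjusted p = 0.00132) and the 1247 within 500 bp (78.6%, a difference of -11.8 points, adjusted p = 1.21e-06). Replicate 3 held 370 distal peaks (83.5%) and replicate 4 held 363 (81.9%), beside 87.0% in each at 501 to 5000 bp. Within 500 bp the shares were 88.3% and 89.4%. With any peak of the whole lists of 30000 counted, replicate 3 held 443 and replicate 4 held 442. With a reciprocal overlap of 50% the difference to 501 to 5000 bp was -3.42 points, which missed the threshold (two-sided Fisher's exact test, adjusted p = 0.239).

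The lower recovery moved with the score. Of the distal peaks above the median score of the IDR list, 97.7% were in both replicates' strongest, against 99.6% at 501 to 5000 bp and 99.8% within 500 bp. Of those at or below it the shares were 47.0%, 51.9% and 53.9%. Among the 111 distal peaks with the highest scores the share was 99.1%, among the next 111 it was 91.9%, among the next 111 59.5%, and among the last 110 16.4%. The score of the IDR list comes from both replicates pooled, so the 2 measures are not independent.

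Of the distal peaks 6 (1.35%) were in neither replicate's strongest, beside 1.14% at 501 to 5000 bp and 0.882% within 500 bp. Those 6 included single summits assigned to Eip75B, en and Eip74EF. Scores of the overlapping peaks had a median of 48.3 in replicate 3 and 56.2 in replicate 4, and the summits moved by a median of 13 and 12 bp between the IDR list and the replicates. Where 2 close summits overlap 1 replicate peak, as in InR and psq, both carry that peak's score. Across 442 distal peaks the rank correlation of the replicates' scores was 0.599, and across peaks at 501 to 5000 bp 0.710. These are descriptions over peaks that share both libraries and differ in score range.

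**Figure D3:**
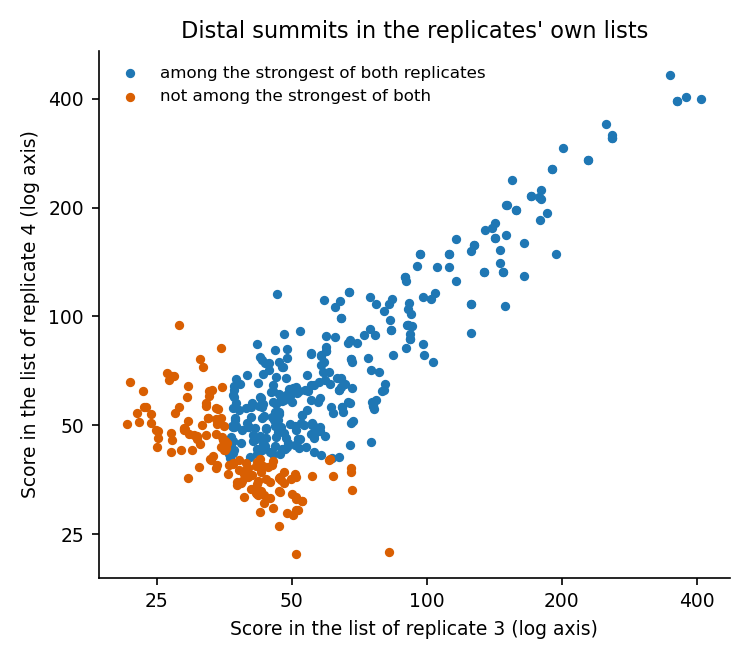
Each point is a distal summit with the score of its strongest overlapping peak in the list of replicate 3 and in that of replicate 4, both on log axes, coloured by whether it was among the 2999 strongest peaks of both replicates. The points rise together, with a median of 48.3 in replicate 3 and 56.2 in replicate 4, and those not in both lie at the low end.

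The letters around the summits were searched on both strands for 11 short motifs, up to 100 bp from the summit. GAGAG is a short form of the GA repeat bound by Psq and the GAGA factor, and GAGAGAG contains it. ACACAC and GTGTG are simple repeats, and every ACACAC contains GTGTG on the other strand. GCCAT is the core recognised by Pho, CAGGTAG by Zelda, TATCGAT by DREF, GGTCACA by M1BP, CACCTG by Snail-type factors and ACCGGTT by Grh, and TATAAA is the TATA box. A match is only these letters in the window and is no measure of binding by the factor named.

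GAGAG was in 165 of the 443 distal windows (37.2%, 32.9 to 41.8), beside 33.1% of all IDR summits. The window of equal width 1000 bp to the left of the same summits held it in 113 (25.5%), and the summit was higher by 11.7 points (exact McNemar test, two-sided, adjusted over the 11 motifs, p = 0.00143). In the window to the right it was 19.2%. Windows beside summits of the other classes were not tested. In the upper 50% of the IDR list by score the excess over the left window was 15.03 points and did not pass (exact McNemar test, adjusted p = 0.0535). The 7-base repeat GAGAGAG, in 9.64% of all IDR summits, was in 10.6% of distal windows and 4.51% of their left neighbours (adjusted p = 0.00253), and ACACAC, in 18.6% of all, was in 23.3% and 16.3% (adjusted p = 0.0480), both by the same exact test. Over 13 alternative settings the GAGAGAG call was lost in 4 and the ACACAC call in 6. Beyond 10000 bp the GAGAGAG excess was 3.21 points (exact test, adjusted p = 0.551). Of the other 8 motifs none passed, with adjusted p from 0.191 (GCCAT) upwards in the exact test. A distal summit without the repeat in its window was therefore more common than one with it. Examples printed above are the fifth-strongest in InR, the upstream chinmo summit and the osa summit. A second summit of that chinmo peak, 201 bp away with a score of 315, had the repeat.

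The repeat was more frequent in the strongest distal peaks. GAGAG was in 53.2% of the 111 with the highest scores (43.9 to 62.2), and in 31.5%, 33.3% and 30.9% of the next 111, 111 and 110. This division of the members by score carries no test. GA runs of 10 or more bases occurred at 15 distal summits (3.39%), beside 3.72% at 501 to 5000 bp and 1.76% within 500 bp. Of the 15, 10 were among the highest 111, and 2, 2 and 1 among the next 111, 111 and 110. The longest, of 22 bases, were in ush (score 144) and in Raf (score 72.8, close to the lowest in the list). By distance, GAGAG was in 36.4% between 5000 and 10000 bp, 37.1% between 10000 and 20000 bp and 39.1% between 20000 and 50000 bp.

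**Figure D4:**
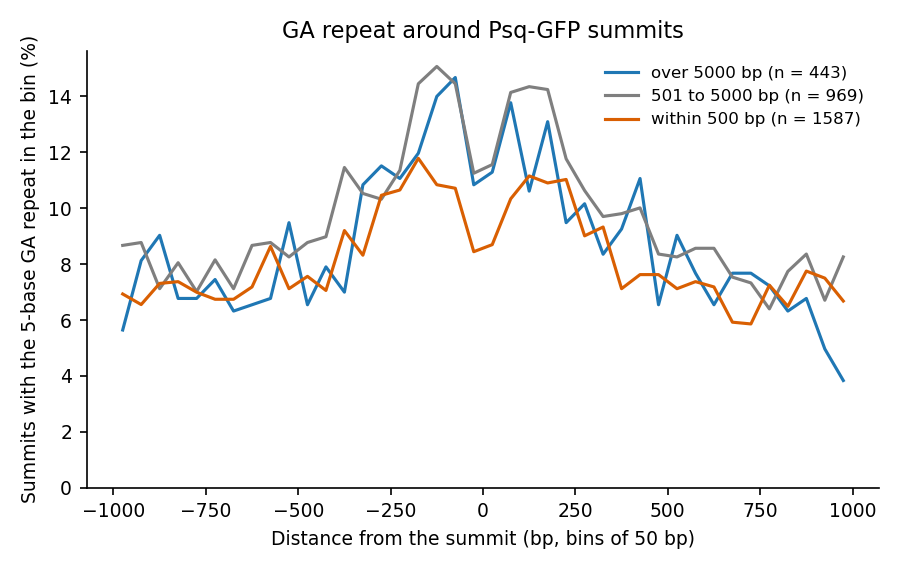
The lines give the percentage of summits with the 5-base GA repeat in each 50 bp bin, by distance from the summit in bp, for the 3 classes of distance to the nearest coding TSS. In the distal class the share was 14.7% in the bin centred 75 bp to the left and 13.8% in the one 75 bp to the right, with 10.8% and 11.3% in the bins next to the summit itself.

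Against summits within 500 bp of a coding TSS, 6 of the 11 motifs differed by two-sided Fisher's exact tests adjusted over 22. By these exact tests distal windows had more GAGAG (37.2% against 29.2%, adjusted p = 0.00757), more ACACAC (23.3% against 15.2%, adjusted p = 0.00103) and more CAGGTAG (1.81% against 0.441%, with 0.834% of all IDR summits, adjusted p = 0.0318). By the same exact tests they had less TATCGAT (1.58% against 11.7%, with 6.84% of all, adjusted p = 3.71e-12) and less GGTCACA (0.677% against 5.23%, with 3.23% of all, adjusted p = 1.86e-05). TATCGAT and GGTCACA belong to core promoters of broadly expressed genes, and the comparison class lies at promoters. TATAAA was also less frequent (26.4% against 32.7%, with 29.5% of all, Fisher's exact test, adjusted p = 0.0465). Over 11 alternative settings the TATAAA call was lost in 7, CAGGTAG in 4, GAGAG in 2, ACACAC in 2 and GGTCACA in 1, and TATCGAT passed in all 11. GAGAG was lost with the TSSs of all genes counted (exact test, adjusted p = 0.0988) and with windows of 50 bp on each side (exact test, adjusted p = 0.0813). The longer GAGAGAG did not pass against this class (10.6% against 8.82%, exact test, adjusted p = 0.647). The 8 distal summits with CAGGTAG included those in Cals, zld, ed and gpp.

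GTGTG was in 39.1% of distal windows, beside 38.2% of all IDR summits, and GCCAT in 26.2%, beside 25.4%. CACCTG was in 4.29%, beside 4.53%, and ACCGGTT in 0 of 443, which allows up to 0.860%, beside 0.8% of all. These 4 did not pass against either class. Against summits 501 to 5000 bp away, 0 of the 11 motifs passed in Fisher's exact test, 0 were under 0.05 unadjusted, and the smallest unadjusted p was 0.106. For GAGAG that difference was -0.42 points, with a 95% interval from -5.78 to 5.06, so differences of up to about 5 points either way are within it. The distal windows had a median GC content of 38.8%, against 39.3% at 501 to 5000 bp and 36.8% within 500 bp. None of the motifs was present in 74 distal windows.

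**Figure D5:**
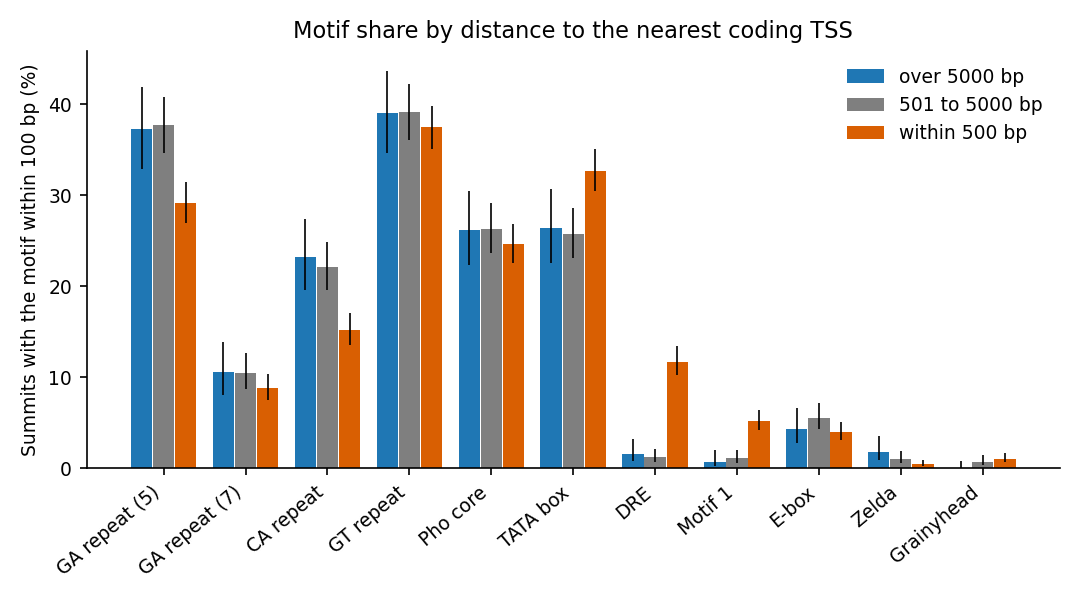
Bars give the percentage of summits with each motif within 100 bp, with 95% Wilson intervals, for distal summits, summits at 501 to 5000 bp and summits within 500 bp of a coding TSS. The distal and middle bars stand at like heights, 37.2% and 37.7% for the 5-base GA repeat, and the DREF core is at 1.58% in distal windows and 11.7% within 500 bp.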

How the data were processed

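Chromatin immunoprecipitation was sequenced by the authors, who, per the deposited listing of each sample, called peaks and background on each replicate and on both pooled against a control alignment, and derived an optimal IDR list. They used an aligner, a peak caller and an IDR cut-off not given in the sources used here. Scores, as deposited, rank peaks within their own list. The deposited −log10 q is capped and was not used to rank, and the deposited summit offset gave the summit. Read numbers, and so depth, are unknown. All columns used were mapped to a sample or pool (0 were not). Every value here comes from the dm6 lists, written 1-based.

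Gene models came from Ensembl release 115, without transposable elements, and sequence from RefSeq dm6. Summits were classed by distance to the nearest coding TSS (within 500, 501 to 5000, beyond 5000 bp). Recovery meant an overlap of at least 1 bp. Shares have 95% Wilson intervals, which cover counting error only. Differences were tested with Fisher's exact or exact McNemar tests with Benjamini-Hochberg adjustment at 0.05. The tests were also run on simulated independent flags, which leave out nested motifs, unequal motif rates and neighbouring summits. Python 3.11.15, SciPy 1.17.1 and pandas 2.3.3 were used.

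Named summits were the 12 strongest found in both replicates, up to 3 per gene list, those of psq, those next to 5000 bp, and genes with 3 or more, some of which are not reported here. The members, the 10 gene lists and the motifs were chosen with earlier results of these data known. The division of members by score, summit spacing, comparison of genes with and without a promoter summit, and profile along the summit were added after values were seen and carry no test.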

Additional observations from a re-analysis of the deposited data

How the results depend on the processing

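The definition sets the size of the class. Beyond 2000 bp lay 26.3% of IDR peaks and beyond 10000 bp 7.27%, with TSSs of all genes counted 10.9%, with 1 TSS per gene 25.5% and in the upper 50% by score 11.5%, against 14.8%. Introns of coding genes held 59.6% beyond 10000 bp, 76.8% with all TSSs and 75.3% with 1 TSS per gene, against 66.4%. By Fisher's exact test, the lower recovery against 501 to 5000 bp became -3.42 points with reciprocal overlap of 50% (adjusted p = 0.239) and -0.0193 with the whole lists (adjusted p = 1), and against within 500 bp -0.0997 with the whole lists (adjusted p = 1), where nearly every peak overlaps. By the same exact test, the score difference to 501 to 5000 bp turned to 0.731 points in the upper 50% (adjusted p = 0.929) and was -4.28 for the share in the upper 25% (adjusted p = 0.0708); the cause was not tested. Against within 500 bp it was -3.90 in the upper 50% (exact test, adjusted p = 0.720). GAGAG at summits exceeded the neighbouring window by 11.9 points beyond 10000 bp (adjusted p = 0.105) and 15.03 in the upper 50% (adjusted p = 0.0535) by exact McNemar tests, both with fewer summits. Motifs that differed from within 500 bp were 3 with all TSSs, 3 in the upper 50% and 2 within 50 bp, against 6, and from 501 to 5000 bp 0 in all 11 alternatives. TATCGAT passed in all 11, TATAAA was lost in 7, CAGGTAG in 4, GAGAG in 2, ACACAC in 2 and GGTCACA in 1. At summits against the neighbouring window, ACACAC was lost in 6 of 13 and GAGAGAG in 4.

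With the strongest peaks of 1 replicate alone, the distal share was 14.2% to 14.97%, the intron share 65.5% to 67.5%, the GAGAG excess 10.2 to 11.7 points and the motif count 5. No pairing of samples between groups was possible because there is only 1 group. Unknown depth limits every statement on weak peaks.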
